A study of Mus musculus with 95 samples.

Results

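The clustered protocadherins were taken as every gene in the expression table whose symbol begins with Pcdha, Pcdhb or Pcdhg and ends in a number, which gave 58 genes of 23377 in all: 14 alpha, 22 beta and 22 gamma genes. The study recorded expression and chromatin in mouse embryonic stem (ES) cells without 1 or more of the PCGF proteins, which set apart the variants of Polycomb repressive complex 1. Its 95 samples comprise 14 libraries of RNA-seq and 81 of ChIP-seq, the latter with 80 peak lists for 12 antibodies. All cells were E14 embryonic stem cells or derivatives, and all groups shared a medium with serum, LIF, a GSK3β inhibitor and a MEK1/2 inhibitor.

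RNA-seq covered 7 genotypes with 2 libraries each: wild-type, Pcgf1-/-, Pcgf2/4-/-, Pcgf3/5-/-, Pcgf6-/-, Pcgf1/2/4-/- and Pcgf3/5/6-/-. The Bmi1 gene encodes PCGF4. The knockouts were Cas9-edited clones selected with puromycin, the lines lacking several genes were edited again from single knockouts, and the column headers name 1 clone for each genotype. Peak lists also came from Ezh1/2-/- cells, which lack both catalytic subunits of Polycomb repressive complex 2. Others came from a Ring1a-/-_Ring1bfl line (no Ring1a, floxed Ring1b, CreERT2 at the Rosa26 locus), from Ring1a/b-/- cells, and from cells with short hairpins (shMGA, shMGAdHLH, shE2F6, shE2F6-MGAdHLH, shCtr, shUsf1 and shUsf2). Nothing in the labels says that replicates came from separate cultures, so p-values measure the spread between these libraries, which may be technical. A clone effect and a genotype effect cannot be told apart.

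Clustered protocadherins are cadherin-like adhesion proteins of neurons, and each neuron displays a small set of isoforms that marks its surface for contact between cells. Every variable exon has its own promoter. Alpha and gamma variable exons are spliced to constant exons at the end of their cluster, whereas a beta gene is a separate unit without constant exons, so reads can be assigned to single beta genes with the least doubt. Choice of promoter depends on CTCF and cohesin loops and on DNA methylation, in which DNMT3B, SMCHD1 and SETDB1 take part. Polycomb repressive complex 1 ubiquitinates H2A (H2AK119Ub1) through RING1A or RING1B, and complex 2, which contains SUZ12, trimethylates H3 (H3K27me3). H3K4me3 marks promoters that are active or poised, and H3K36me3 marks transcribed gene bodies.

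Library totals ran from 2147968 to 7848161 counts. The Pcgf1 gene stood at 6.3% of its wild-type level in Pcgf1-/- and at 1.13% in Pcgf1/2/4-/- cells, and Pcgf6 had no count in either Pcgf6-/- library. The other targeted genes kept 42.3% to 126% of their wild-type mRNA, among them Pcgf6 at 112% in the Pcgf3/5/6-/- line. Small edits can leave mRNA in place, so those counts do not check the labels. Pou5f1, the defining stem cell factor, was abundant in every library, with 1342 to 1983 counts, which are not scaled for library size. In CPM (defined below) it ran from 202 in a Pcgf1-/- library to 717 in a Pcgf1/2/4-/- library, with 267 and 272 in wild-type. The sum of 8 pluripotent stem cell markers was 1170 and 2690 CPM in these knockout libraries, against 1470 and 1480 in wild-type. Of the 8, 5 rose and 0 fell in Pcgf1/2/4-/- cells, against 14.4% and 22.6% of all genes. In the other lines 0 to 2 rose and 0 to 2 fell.

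Little protocadherin mRNA was present in these cells. The 14 alpha genes together had 49 counts over the 14 libraries, the 22 beta genes 343 and the 22 gamma genes 5530. No count was seen for 9 of the 58 genes (4 alpha and 5 beta), while every gamma gene had at least 10. The filter on low counts left 19 genes for testing: Pcdhb7, 18 gamma genes and no alpha gene. A gene at 0 in a group can be present at up to the level that 3 counts over its libraries would give, which is 0.212 CPM (counts-per-million units, on library sizes scaled by the TMM method) in wild-type cells.

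The 22 beta genes lie at NCBIM37 chr18:37424652-37681073, over 256 kb of the forward strand. In wild-type cells 6 and 5 of them had a count in the 2 libraries, and their summed level was 2.14 and 1.83 CPM. Pcgf6-/- cells had counts for 10 of 22 in each library and sums of 16.4 and 13.8 CPM. The other lines stayed below 4 CPM in every library, with the lowest sums, 0.668 and 0.384 CPM, in Pcgf3/5-/- cells. In bulk libraries, fewer cells that express a gene and less of its RNA per cell cannot be told apart. The smallest p that exact permutation of 2 and 2 libraries allows is 0.333, so the sums were not tested.

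Pcdhb7, an adhesion gene of the cluster (chr18:37501356-37504861, a single annotated exon of 3506 bases), carried most of that difference. It had 87 and 61 counts in the Pcgf6-/- libraries and 3 in each of the 2 Pcgf3/5/6-/- libraries. All 10 other libraries had 0. The Pcgf6-/- libraries therefore stood apart from every other genotype. At 10.1 ± 1.05 CPM (SD, n = 2) Pcdhb7 was at least 47.5-fold higher in Pcgf6-/- than in wild-type cells (adjusted p = 4.3e-06, edgeR quasi-likelihood test over 15464 genes). In Pcgf3/5/6-/- cells it stood at 0.981 ± 0.0467 CPM, at least 4.62-fold higher than in wild-type (adjusted p = 0.0075). With an offset fitted to the trend of each library with abundance, the Pcgf3/5/6-/- call was lost (adjusted p = 0.0596). The authors' deposited table gave Pcdhb7 a log2 fold change of 8.63 in Pcgf6-/- and 5.31 in Pcgf3/5/6-/- cells; its headers give the Pcgf6-/- clone another name than the count table does. Because Pcdhb7 passed the filter through the Pcgf6-/- libraries, it could pass only by differing between genotypes.

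Per kilobase of exon, Pcdhb7 stood at 2.88 CPM per kb in Pcgf6-/- cells. Pcdhb17 came next at 0.569 CPM per kb, and in wild-type cells the highest beta gene was Pcdhb17 at 0.216. Without Pcdhb7 the beta sum in Pcgf6-/- cells was 5.6 and 4.44 CPM, still above both wild-type libraries. Of those counts Pcdhb17 gave 20 and 8, against 3 and 7 in wild-type. Pcdhb20, annotated as a pseudogene, had 4 and 5 counts in Pcgf6-/- cells and 0 in wild-type, and Pcdhb5 had 3 and 5 against 1 and 1. These genes did not pass the filter, so none of them was tested. Pcdhb22 had its highest count, 16, in a single Pcgf2/4-/- library whose replicate had 3, and Pcdhb14 had 15 in a single Pcgf1-/- library whose replicate had 2.

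**Figure D1:**
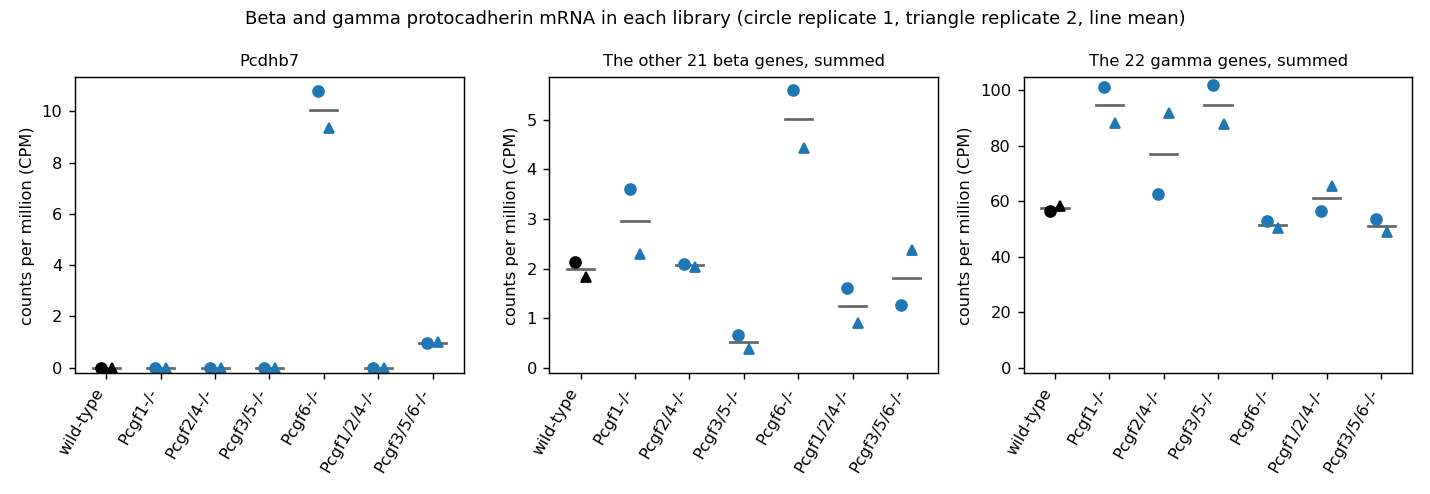
Level (CPM) of Pcdhb7, of the other 21 beta genes summed and of the 22 gamma genes summed, for each of the 14 libraries by genotype; circles are replicate 1, triangles replicate 2, lines the mean of both. Pcdhb7 lies at 10.1 CPM on average in Pcgf6-/- cells and at 0 in 5 genotypes, and the gamma sums are highest in Pcgf1-/- and Pcgf3/5-/- cells.

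Markers of other cell types moved in the same libraries, some up and some down, and also in lines without a Pcdhb7 count. The summed level of 6 endoderm markers was 32.2 and 31.4 CPM in Pcgf6-/- against 0.999 and 0.844 CPM in wild-type cells. In Pcgf3/5/6-/- cells it was 7.58 and 17.9 CPM, and in Pcgf1/2/4-/- cells, without a Pcdhb7 count, 3.74 and 7.68 CPM. Of 3 endoderm markers tested, 2 rose and 0 fell in Pcgf6-/- cells, against 27.8% and 18.6% of all genes. Endoderm markers this low in wild-type could pass the filter only through knockout libraries. A fall from wild-type could hardly be called, so these numbers are descriptions. Afp, a yolk sac and liver protein, had 121 and 96 counts in Pcgf6-/- and 5 and 4 in wild-type libraries, and 4 of the 6 genes, including Gata6, Sox17 and Foxa2, had no wild-type count, while none of the 6 was at 0 in Pcgf6-/- libraries. The 5 fibroblast markers summed to 28.6 and 24.4 CPM in Pcgf6-/-, to 38.2 and 35.5 in Pcgf3/5/6-/- and to 10.6 and 7.45 in wild-type cells. In Pcgf3/5-/- cells, without a Pcdhb7 count, they summed to 17.6 and 12.3 CPM. Of 3 fibroblast markers tested, 3 rose and 0 fell in Pcgf6-/- cells, against the same shares of all genes. Of the 14 neural markers 9 were tested, and in Pcgf6-/- cells 4 rose and 2 fell (median log2 1.09), against 27.8% and 18.6% of all genes. Nes went from 3.69 to 18.4 CPM, Neurod1 from 0.566 to 4.87 and Elavl4 from 7.65 to 18.9. Neurod1, so low in wild-type, could likewise pass the filter only through knockout libraries. Stmn2, the most abundant, fell from 245 to 141 CPM, so the summed level was lower, at 259 and 256 against 345 and 346 CPM. In Pcgf3/5/6-/- cells 6 neural markers rose and 0 fell (median log2 2.32), against 28.0% and 25.3%. The summed level of 4 mesoderm markers was lower, at 8.59 and 8.89 CPM in Pcgf6-/- against 55.6 and 49.4 CPM in wild-type cells. Of these, 3 were tested and all 3 fell in Pcgf6-/- cells (median log2 -2.32), against 18.6% of all genes. In every other knockout line the mesoderm sums also lay below wild-type, at 14.9 to 35.2 CPM. The part of all these markers in the rise of Pcdhb7 was not tested.

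Alpha genes (chr18:37089939-37347311) had at most 1.07 CPM in sum in 12 of the 14 libraries. The Pcgf3/5/6-/- libraries had 2.21 and 6.42 CPM, from 7 and 19 counts. Of these, 4 and 12 came from Pcdhac2, a C-type isoform, a class used more evenly across neurons than the other isoforms. Pcdhac2 also had 5 and 4 counts in Pcgf6-/- cells, 1 in a Pcgf1/2/4-/- library and 0 elsewhere. Pcdhac1, the other C-type alpha gene, had 6 counts in a single wild-type library and 0 in the rest. No alpha gene was tested.

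Gamma genes (chr18:37833989-38001527, over 168 kb) made up most of the protocadherin mRNA. Their summed level was 56.6 and 58.4 CPM in wild-type cells. It was higher in both Pcgf1-/- libraries (101 and 88.2 CPM) and both Pcgf3/5-/- libraries (102 and 87.6), and in Pcgf2/4-/- libraries it was 62.4 and 91.6. The sums in Pcgf6-/- (52.7 and 50.3) and Pcgf3/5/6-/- cells (53.7 and 48.7) lay below wild-type, and those of Pcgf1/2/4-/- cells (56.6 and 65.5) overlapped it. These sums were not tested. The highest single gene was Pcdhgc3, a C-type isoform, at 9.38 CPM on average over the 14 libraries. How reads in the constant exons that gamma isoforms share were counted is not given in the sources used here, so levels of single gamma genes are uncertain. Pcdhga9 and Pcdhga10, like Pcdhb7, had no wild-type count and passed the filter only through knockout libraries. Pcdhgb1 and Pcdhgb2 were each too low in a wild-type library to pass without a knockout library, and other low gamma genes may be alike. The counts and medians over tested members below are therefore descriptions, and the adjusted p of such genes carries the same limit.

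In Pcgf1-/- cells 7 of the 19 tested members rose and 0 fell, against 13.9% of all genes tested that rose and 18.4% that fell. The median log2 fold change was 0.80 over the tested members and -0.05 over all genes. Pcdhga8 had 3.42 and 3.38 CPM in wild-type and 12 and 10.1 CPM in Pcgf1-/- libraries, a log2 change of 1.72 ± 0.23 (SE; adjusted p = 7.73e-05). Pcdhgb1 went from 2.00 and 1.41 CPM to 7 and 6.17 CPM (log2 1.96 ± 0.32). Pcdhga3, Pcdhga4, Pcdhga12 and Pcdhgb4 also rose, by log2 0.97 to 2.24, and Pcdhga9, with no wild-type count, rose at least 7.04-fold. All 7 are alternate variable exons and not C-type. Of the C-type genes only Pcdhgc3 and Pcdhgc4 were tested, so most tested members are alternate in any case. For each of the 7, both Pcgf1-/- libraries lay above both wild-type libraries. The calls came from these same libraries, so this is no separate support, and the share of all genes so placed was not counted. Without the deeper Pcgf1-/- library the number that rose was 4.

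Pcgf3/5-/- cells showed 8 tested members that rose and 1 that fell, against 11.1% and 10.4% of all genes. Pcdhga8 stood at 9.63 and 9.40 CPM, a log2 change of 1.48 ± 0.23, and Pcdhga4 at 9.09 and 7.67 CPM against 2.71 and 2.39 in wild-type (1.72 ± 0.30). Pcdhga7 was the most abundant of those that rose, at 12.8 and 10.9 CPM against 4.85 and 7.17. Pcdhga3, Pcdhgb1, Pcdhgb2, Pcdhga9 and Pcdhga10 rose as well, the last pair from no wild-type count, by at least 7.47-fold and at least 9.68-fold. Pcdhgc4, a C-type gene, fell from 1.43 and 1.97 CPM to 0.401 and 0.192, and lost its call in DESeq2 and without either Pcgf3/5-/- library or the second wild-type library. The number that rose was 4 without the first Pcgf3/5-/- library and 5 without the first wild-type library.

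In Pcgf2/4-/- cells 7 members rose and 0 fell, against 8.10% and 13.5% of all genes, with medians of 0.45 and 0 (log2). Pcdhgb2 had 0.713 and 1.83 CPM in wild-type and 6.28 and 6.26 in Pcgf2/4-/- libraries (log2 2.28 ± 0.37, adjusted p = 0.000734, edgeR). Pcdhga12 stood at 6.28 and 9.46 CPM against 3.00 and 2.67 (log2 1.57 ± 0.28), and Pcdhga9 and Pcdhga10 rose at least 10.9-fold and at least 7.17-fold. The others that rose were Pcdhga3, Pcdhga4 and Pcdhgb1. Pcdhgb1 lost its call in 9 of 11 alternatives and Pcdhga4 in 4 of 11, with an adjusted p of up to 0.466 (edgeR). The first Pcgf2/4-/- library is shallow, and the number that rose was 3 without the second and 4 without the second wild-type library.

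Pcgf6-/- cells had 4 tested members that rose, Pcdhb7 among them, and 4 that fell, against 27.8% and 18.6% of all genes. With the offset that follows abundance, 7 fell. Pcdhgc3 had 10.4 CPM in each wild-type library and 1.99 and 1.38 CPM in Pcgf6-/- libraries, a log2 change of -2.59 ± 0.30 (adjusted p = 6.66e-06, edgeR). No library of another genotype was as low. Pcdhgb7 had 56 counts over the wild-type libraries and 2 over the Pcgf6-/- libraries, 3.47% of the wild-type level (exact 95% counting interval 0.41% to 13.1%). Pcdhga11 and Pcdhgb8 fell by 1.92 and 1.01 on the log2 scale, and DESeq2 did not call Pcdhgb8. Pcdhga12 (7.35 and 7.51 CPM), Pcdhga3 (4.61 and 4.75) and Pcdhgb2 (4.61 and 4.75) rose by log2 1.38, 1.94 and 1.86.

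Pcgf1/2/4-/- cells had 3 tested members that rose and 2 that fell, against 14.4% and 22.6% of all genes. Pcdhga4 had 8.54 and 10.8 CPM against 2.71 and 2.39 in wild-type (log2 1.93 ± 0.37), Pcdhgb2 rose by log2 2.45 and Pcdhga10 rose at least 9.28-fold. Pcdhgb8 had 75 counts in wild-type and 2 in Pcgf1/2/4-/- libraries, 9.21% of the wild-type level (1.1% to 34.5%). Pcdhga1 fell by 1.31 on the log2 scale (adjusted p = 0.0355, edgeR), and lost its call in 7 of 11 alternatives, DESeq2 and the removal of any of the 4 libraries compared among them, which left 1 that fell. Both libraries of this line are the shallowest of the series, so small gamma genes can be missed there.

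In Pcgf3/5/6-/- cells 5 tested members rose and 5 fell, against 28.0% and 25.3% of all genes. Pcdhgb8 had 0 and 2 counts, 6.15% of the wild-type level (0.731% to 23%). Pcdhgc4 had 1 count over both libraries, 9.61% of wild-type (0.234% to 58.9%), and Pcdhgc3 stood at 6.32 and 5.41 CPM against 10.4 in each wild-type library (log2 -0.82 ± 0.29); DESeq2 called neither. Pcdhga11 fell too. Pcdhgb7 was called lower (1.83 against 3.97 CPM), and lost its call in 7 of 11 alternatives, DESeq2 and the replicate block among them. Pcdhga12 rose (7.90 and 5.75 CPM, log2 1.27 ± 0.32), as did Pcdhga4, Pcdhb7, Pcdhga9 and Pcdhga10, the last 3 from no wild-type count. Pcdhga4 lost its call in 6 of 11 alternatives, including the removal of any of the 4 libraries compared. Without the second wild-type library 1 member fell, 2 fell without the first Pcgf3/5/6-/- library (and 3 rose), and 3 fell without either of the other libraries compared. With the offset fitted to the trend of each library with abundance, 2 members rose.

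The comparisons share the wild-type libraries, so members found in several of them are not separate evidence. Pcdhga4 was called higher in 5 of the 6 knockouts, 3 of which (Pcgf1-/-, Pcgf3/5-/- and Pcgf1/2/4-/-) kept the call when any single library was left out, and stood at 4.48 and 3.68 CPM in the sixth, Pcgf6-/-. Pcdhgc5, a C-type gene that was not tested, had at most 1.35 CPM in any library. Pcdhga8, called higher in Pcgf1-/- and Pcgf3/5-/- cells, was not called in the triple knockouts, where it had 2.67 and 3.16 CPM (Pcgf1/2/4-/-) and 1.26 and 2.37 CPM (Pcgf3/5/6-/-).

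**Figure D2:**
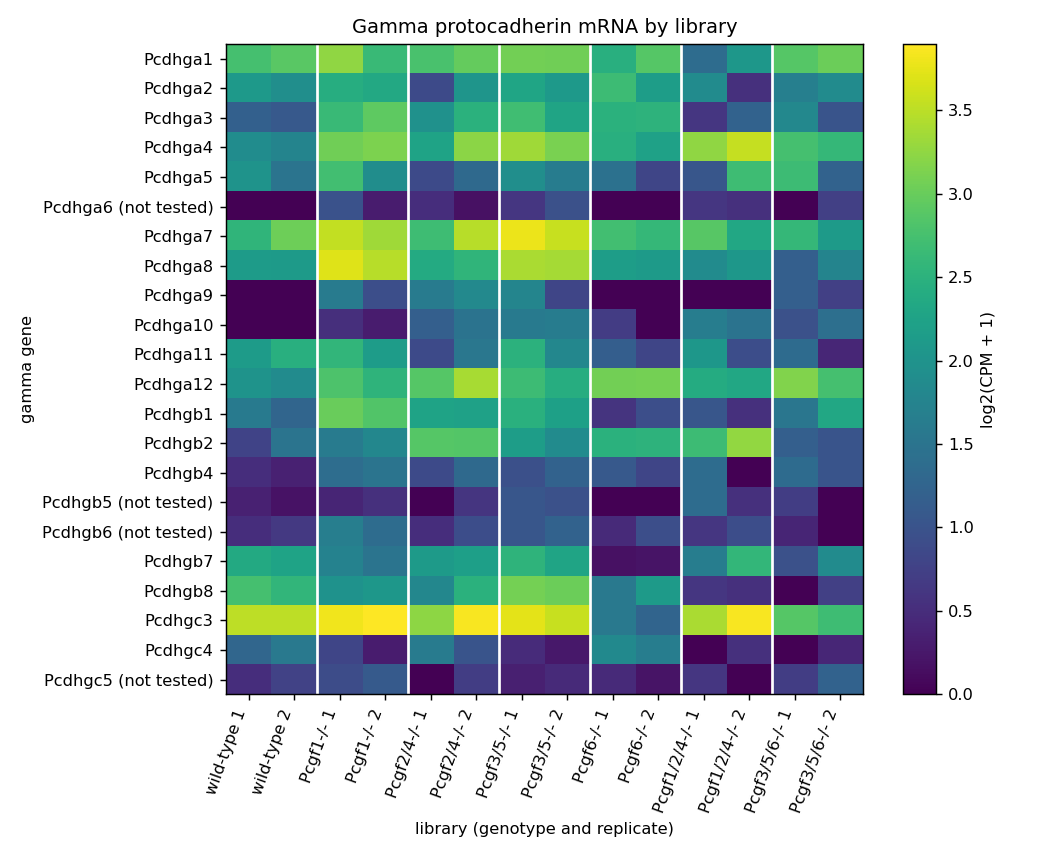
Level of each of the 22 gamma genes, as log2(CPM + 1) in colour, for the 14 libraries in columns (genotype and replicate). Pcdhgc3 is darkest in the Pcgf6-/- libraries, at 1.99 and 1.38 CPM, and Pcdhga8 is brightest in the Pcgf1-/- libraries, at 12 and 10.1 CPM.

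The effect of losing Pcgf6 was compared with and without Pcgf3/5, as the difference of the 2 log2 changes in the same edgeR fit. It differed for 8 of the 19 tested members, against 34.9% of all genes. Pcdhgc3 fell with Pcgf6 loss alone and less so on the Pcgf3/5-/- background (difference 1.60 ± 0.44), as did Pcdhgb7 (3.36 ± 0.89). Pcdhga3, Pcdhgb2 and Pcdhga8 went the other way, with differences of -3.33, -3.29 and -2.40, as did Pcdhgb8, Pcdhga4 and Pcdhga7, the last pair lost under DESeq2 and the replicate block. Without the first Pcgf3/5/6-/- library 4 of these effects differed, and without the second 5. The effect of losing Pcgf1 with and without Pcgf2/4 differed for 8 members, counting Pcdhga9, which passed the filter only through libraries where it is present. All 8 were lower on the Pcgf2/4-/- background. Of all 15464 genes 30.9% differed in either direction, 2599 of them lower and 2185 higher. Pcdhga3 (-4.29 ± 0.70) and Pcdhgb1 (-4.27 ± 0.70) had the largest differences of those with a wild-type count. The number was 4 without the second Pcgf2/4-/- library, and 5 without the first wild-type or the first Pcgf1-/- library.

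Known regulators of protocadherin choice were measured in the same libraries. Of 25 regulators tested, 2 rose and 4 fell in Pcgf1-/- cells, where 13.9% and 18.4% of all genes did. The numbers were 0 and 4 in Pcgf2/4-/- (8.10% and 13.5% of all genes), 2 and 4 in Pcgf3/5-/- (11.1% and 10.4%) and 2 and 4 in Pcgf6-/- cells (27.8% and 18.6%). They were 4 and 5 in Pcgf1/2/4-/- (14.4% and 22.6%) and 5 and 9 in Pcgf3/5/6-/- cells (28.0% and 25.3%). Dnmt3b, the methyltransferase that silences alternate promoters, had 152 ± 4.57 CPM in wild-type, fell to 67.5 ± 6.36 in Pcgf6-/- cells (log2 -1.18) and rose to 360 ± 3.83 in Pcgf1/2/4-/- cells (n = 2 each). It also fell in Pcgf3/5-/- (88.8 CPM) and Pcgf2/4-/- cells (104 CPM). Its relative Dnmt3a rose in 4 lines, from 35.9 CPM to 170 CPM in Pcgf3/5/6-/- cells, and fell to 20.4 CPM in Pcgf2/4-/- cells. Ctcf fell in Pcgf2/4-/-, Pcgf3/5-/- and Pcgf3/5/6-/- cells by 0.38 to 0.49 on the log2 scale. Smchd1, a structural maintenance protein that silences the cluster, rose in Pcgf3/5/6-/- cells (57.6 against 32.9 CPM). Setdb1, the H3K9 methyltransferase, fell in Pcgf1-/- (184 against 269 CPM) and Pcgf3/5/6-/- cells and rose in Pcgf1/2/4-/- cells (387 CPM). The cohesin subunit gene Stag2 fell in Pcgf1/2/4-/- (39.1 against 137 CPM) and Pcgf3/5/6-/- cells (93.2 CPM), and Smc1a fell in Pcgf3/5/6-/- (140 against 270 CPM) and Pcgf6-/- cells (205 CPM).

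Of 21 tested genes beside or between the clusters, 0 to 4 rose and 0 to 5 fell per line, against 8.10% to 28.0% and 10.4% to 25.3% of all genes. Pcdh1, a non-clustered protocadherin nearby, rose in Pcgf1-/-, Pcgf3/5-/-, Pcgf1/2/4-/- and Pcgf3/5/6-/- cells, from 0.355 CPM to between 2.5 and 3.86. Cd14, a lipopolysaccharide receptor gene, fell from 3.54 to 0.292 CPM in Pcgf6-/- cells, and Arap3 rose there from 0.708 to 3.39 CPM. Of 12 non-clustered protocadherins 6 were tested, and 0 fell in any line, against 10.4% to 25.3% of all genes. Those that rose were 1 in Pcgf1-/- (13.9% of all genes), 1 in Pcgf2/4-/- (8.10%) and 1 in Pcgf3/5-/- cells (11.1%). They were 3 in Pcgf6-/- (27.8%), 2 in Pcgf1/2/4-/- (14.4%) and 3 in Pcgf3/5/6-/- cells (28.0%). Pcdh17 and Pcdh18, adhesion genes on other chromosomes, rose in Pcgf6-/- cells to 4.74 and 5.82 CPM from 0.211 and 0.212. All 12 summed to 4 and 6.19 CPM in the wild-type libraries. Pcdh1, Pcdh17 and Pcdh18 could pass the filter only through knockout libraries, so a fall of these genes could hardly be called.

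ChIP-seq had 1 peak list per antibody and genotype, except Ring1b and H2AK119Ub1 in Pcgf1/2/4-/- cells with 2, so counts of peaks carry no test between genotypes. A gene was counted when a listed peak came within 2.5 kb of its annotated start (GENCODE M1). All 22 beta genes have an annotated start. The annotation joins the alpha and gamma isoforms under a few symbols, which leaves 11 separate alpha and 9 gamma starts, named here by position. Lists differed in length from 1070 to 128786 peaks within H2AK119Ub1 alone, so the counts are read beside the share of all 22367 protein-coding genes that had a peak in the same list.

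H3K27me3, the mark of Polycomb complex 2, lay near 11 of 22 beta starts in wild-type cells, against 12.8% of all genes. The list of Pcgf1-/- cells had 22 of 22 (19.4%), that of Pcgf2/4-/- cells 22 (35.8%), that of Pcgf3/5-/- cells 21 (21%) and that of Pcgf3/5/6-/- cells 22 (19.7%). Pcgf6-/- cells had 7 (13.6%) and Pcgf1/2/4-/- cells 5 (5.49%). Every list held a larger share of beta starts than of all genes. Within 1 kb this still held, with 7 starts against 11.4% of all genes in wild-type and 13 against 17.8% in Pcgf1-/- cells. For starts that lay inside a peak it did not hold in every list. The beta share was below that of all genes in wild-type (0% against 5.19%), Pcgf2/4-/- (4.55% against 24.3%) and Pcgf3/5-/- cells (9.09% against 11.1%). It was also below in Pcgf6-/- (0% against 4.25%) and Pcgf1/2/4-/- cells (0% against 0.984%). The share was above that of all genes in Pcgf1-/- (13.6% against 11.6%) and Pcgf3/5/6-/- cells (6 starts, 27.3% against 9.28%).

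Covered length told the lists apart further. H3K27me3 peaks covered 6.87 kb of the beta cluster in wild-type cells, 2.68% of it against 0.238% of the genome, or 11.2-fold. In Pcgf3/5/6-/- cells they covered 63 kb, or 24.6% against 0.684% of the genome, 35.9-fold. The same ratio was 15.6-fold in Pcgf1-/- and 13.4-fold in Pcgf3/5-/- cells. It was 12.2-fold in Pcgf1/2/4-/- (2.62 kb), 5.6-fold in Pcgf6-/- (4.46 kb) and 3.87-fold in Pcgf2/4-/- cells (30.5 kb), whose list covered 3.07% of the genome. The median −log10 q of the peaks over the cluster ran from 6.52 in Pcgf1/2/4-/- (7.26 over that whole list) to 28.4 in Pcgf2/4-/- cells (13.4). These scores also follow the depth of each list and are not compared between lists.

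H3K4me3 was listed near 13 of 22 beta starts in wild-type cells, against 66.2% of all genes. Pcgf6-/- cells had 20 (67.9%), among them all 13 of the wild-type list. Pcgf1-/- cells had 5 (65.2%), Pcgf2/4-/- cells 4 (66.1%) and Pcgf3/5-/- cells 2 (64.9%), while the share of all genes hardly moved. With this window only the Pcgf6-/- list held a larger share of beta starts than of all genes. Within 1 kb no list did: H3K4me3 was near 1 beta start in wild-type (64.7% of all genes) and near 7 in Pcgf6-/- cells (66.3%). Peaks of the Pcgf6-/- list covered 11.7 kb of the cluster, against 6.47 kb in wild-type, 2.12 kb in Pcgf1-/-, 1.6 kb in Pcgf2/4-/- and 0.749 kb in Pcgf3/5-/- cells. In all 5 lists the H3K4me3 peaks over the cluster scored low for their list. Their median −log10 q was 12.6 in wild-type, against 27.3 over that whole list, and 14.5 in Pcgf6-/- cells, against 33. At a −log10 q of at least 20, a bound chosen after seeing the data, 5 starts were left in wild-type and 7 in Pcgf6-/- cells. Pcgf1-/- cells had 2 left, and Pcgf2/4-/- and Pcgf3/5-/- cells 0. No H3K4me3 list of the triple knockouts was analysed here.

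Set together, both marks lay near the same 6 beta starts in wild-type cells, H3K4me3 alone near 7, H3K27me3 alone near 5 and neither near 4. In Pcgf6-/- cells H3K4me3 stood alone at 13 starts, H3K27me3 alone at 0, both at 7 and neither at 2. The other lines with both antibodies had H3K27me3 alone at 17 (Pcgf1-/-), 18 (Pcgf2/4-/-) and 19 starts (Pcgf3/5-/-), and H3K4me3 alone at 0. Pcdhb5 and Pcdhb6 had no H3K4me3 peak in any of the 5 lists, and Pcdhb21, near the end of the cluster, had one in all 5. Genes lie close enough to share a peak: in the Pcgf2/4-/- and Pcgf3/5-/- lists the peak near the Pcdhb22 start is the one inside Pcdhb21, so their 4 and 2 starts rest on 3 peaks and 1 peak. Pcdhb7 had H3K4me3 in wild-type, Pcgf1-/- and Pcgf6-/- lists, with −log10 q of 12.6, 9.92 and 20.6, and no H3K27me3 in wild-type, Pcgf6-/- or Pcgf1/2/4-/- lists. Its H3K4me3 peak was thus listed in wild-type cells, where it had no count, as well as in Pcgf6-/- cells. Scores from different lists also follow their depth and are not compared.

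**Figure D3:**
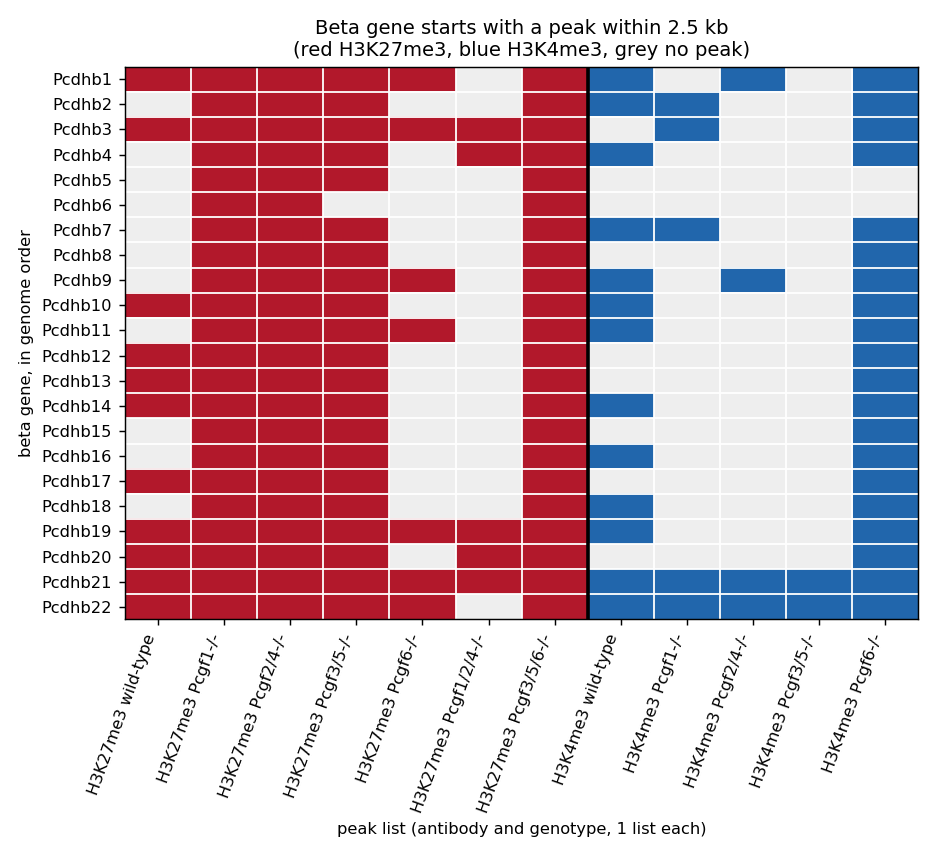
The 22 beta genes in genome order (vertical) against 12 peak lists (horizontal, 7 of H3K27me3 and 5 of H3K4me3); a red or blue tile marks a peak within 2.5 kb of the annotated start and a grey tile none. Red columns are full or nearly so, with 21 or 22 starts, in Pcgf1-/-, Pcgf2/4-/-, Pcgf3/5-/- and Pcgf3/5/6-/- lists, and the blue column of Pcgf6-/- has 20.

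Most of these peaks lay inside the genes and not at their starts. Counting each peak once, all 13 H3K4me3 summits of the wild-type list fell inside a beta gene, at a median of 1970 bp past its start, and 1 lay within 500 bp of the start. All 25 summits of the Pcgf6-/- list were inside a gene, at a median of 1790 bp, and 7 lay within 500 bp of the start, those of Pcdhb1, Pcdhb2, Pcdhb3, Pcdhb11, Pcdhb14, Pcdhb16 and Pcdhb22. Of these, the wild-type list had such a summit only at Pcdhb1. At Pcdhb7 the summit lay 2101 bp past the start in wild-type and 2132 bp past it in Pcgf6-/- cells. For H3K27me3, 13 of 14 summits were inside a gene in wild-type cells, at a median of 1221 bp, and all 42 in Pcgf1-/- cells, at 1555 bp. In Pcgf3/5/6-/- cells 17 of 58 summits lay outside the beta genes, where the other 6 lists had 0 or 1.

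**Figure D4:**
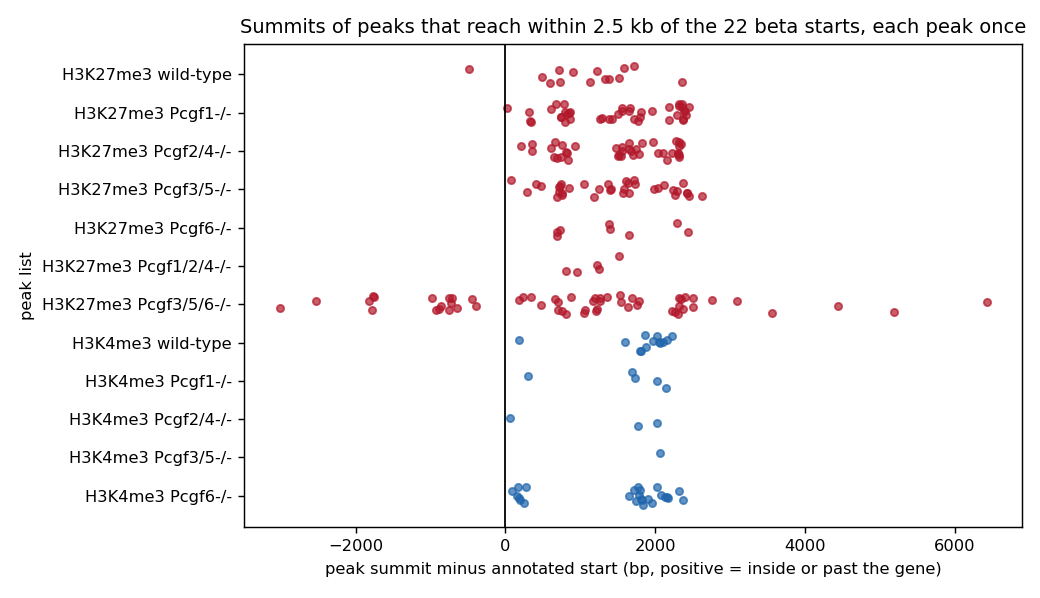
Distance in bp from the annotated start of a beta gene to the summit of each peak that reaches within 2.5 kb of one (horizontal, positive past the start; each peak is shown once, at the gene that holds its summit or else the nearest start), for 12 lists (vertical; red H3K27me3, blue H3K4me3, each point 1 peak). Most H3K4me3 points gather near 2000 bp past the start, and a second group close to the start is seen in Pcgf6-/- cells, where 7 summits lie within 500 bp.

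The beta genes share a base composition that changes along the gene. The 500 bases before the start had a median GC content of 35.8%, the first 500 bases of the gene 47.2%, and the stretch from 1500 to 2000 bases 59.7%. In that stretch the ratio of observed to expected CpG was also highest, at 0.564, against 0.327 in the first 500 bases. Between 250 bases before and 50 after the start, GC content was 39.8% at beta, 43.3% at alpha and 46.7% at gamma starts (medians) and 55.3% at other protein-coding genes. The letters CGCT, the core of an element conserved at protocadherin promoters, were found on either strand of this window at 22 of 22 beta, 11 of 11 alpha and 8 of 9 gamma starts, and at 67.5% of 22351 other genes. Beta genes also share stretches with each other: 0% to 12% of the 50-base windows of a gene recur in another beta gene, and for Pcdhb7 the share was 8.56%, most of all with Pcdhb9. ChIP-seq reads were 50 bp long, and how reads that map to several places were treated is not given in the sources used here.

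H2AK119Ub1, the mark set by Polycomb complex 1, was listed near 0 of 22 beta starts in wild-type (3.76% of all genes), Pcgf1-/- (9.79%) and Pcgf6-/- cells (6.93%). It was listed near all 22 in Pcgf2/4-/- (40.8%) and Pcgf3/5-/- cells (65.0%) and near 13 in Pcgf3/5/6-/- cells (31.2%). The 2 lists of Pcgf1/2/4-/- cells had 1 and 0 (1.64% and 0.827%). The Pcgf2/4-/- and Pcgf3/5-/- lists were long, 121944 and 128786 peaks against 1741 in wild-type, so their counts move with how much was called.

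Polycomb subunits were listed near 0 to 10 beta starts. RING1B, the catalytic subunit of complex 1, was near 3 of 22 in wild-type (15.1%), 3 in Pcgf1-/- (15.2%), 1 in Pcgf2/4-/- (17.0%), 2 in Pcgf3/5-/- (15.4%) and 4 in Pcgf6-/- cells (12.6%). It was near none in Pcgf3/5/6-/- (7.88%) or in either Pcgf1/2/4-/- list (6.84% and 6.15%). In wild-type cells the 3 were Pcdhb1, Pcdhb21 and Pcdhb22, at the ends of the cluster. SUZ12 was near 7 beta starts in wild-type (16.5%), 3 in Pcgf1-/- (15.1%), 10 in Pcgf2/4-/- (21%), 5 in Pcgf3/5-/- (17.0%), 6 in Pcgf6-/- (14.4%), 3 in Pcgf1/2/4-/- (13.2%) and 10 in Pcgf3/5/6-/- cells (13.0%). H3K36me3 was near no beta or alpha start in any of the 5 lists, where 26.2% (wild-type), 31.5% (Pcgf1-/-), 28.5% (Pcgf2/4-/-), 31.7% (Pcgf3/5-/-) and 31.3% (Pcgf6-/-) of all genes had it.

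**Figure D5:**
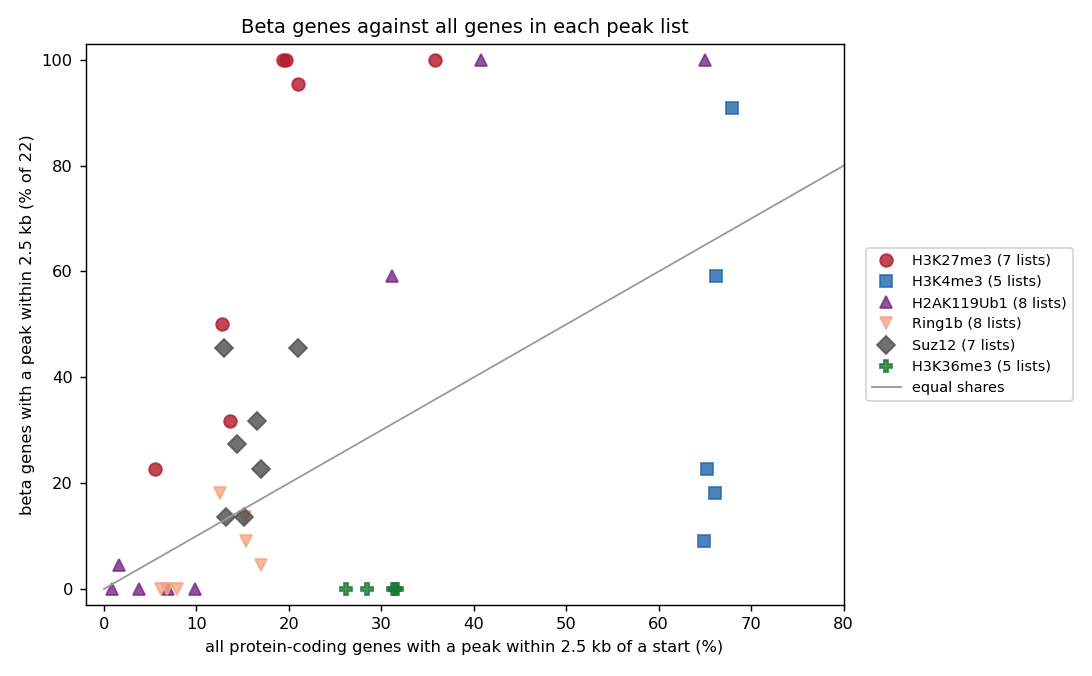
Share of the 22 beta genes with a peak within 2.5 kb (vertical, %) against the share of all protein-coding genes (horizontal, %), for 40 lists of 6 antibodies; each point is 1 list and the line marks equal shares. H3K27me3 points lie above the line in all 7 lists, and of the H3K4me3 points only that of Pcgf6-/-, with 20 of 22 beta genes against 67.9% of all genes, does.

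PCGF proteins themselves were seldom listed at the beta cluster. PCGF2 was near 6 beta and all 11 alpha starts in Pcgf6-/- cells (19.5% of all genes). In wild-type cells it was near 0 and 1 (12.7%), in Pcgf1-/- cells near 0 and 2 (12.4%), in Pcgf3/5-/- cells near 0 and 2 (9.60%), and in Ring1a-/-_Ring1bfl cells near 0 and 4 (9.50%). The 6 beta genes were Pcdhb3, Pcdhb5, Pcdhb7, Pcdhb19, Pcdhb21 and Pcdhb22. PCGF6 was near 10 beta and 4 alpha starts in Pcgf2/4-/- cells (32.4%) and near 0 beta starts in wild-type (5.74%), Pcgf3/5-/- (5.31%) and shCtr cells (20.3%). It was near 1 beta start in Pcgf1-/- (17.6%), and the Pcgf6-/- control list also had 1 (1.59%). PCGF1 was near 3 beta and 7 alpha starts in Ezh1/2-/- cells (11%) and 1 and 6 in Ring1a-/-_Ring1bfl cells (31.7%), and near none of either in Pcgf2/4-/- cells (5.52%). In Pcgf6-/- cells it was near 1 alpha start (9.80%). USF1 was near 2 gamma starts only (16.2%). Gamma starts had more: PCGF1 was near 7 of 9 in Ring1a-/-_Ring1bfl, 4 in Pcgf6-/- and 3 in Pcgf2/4-/- and Ezh1/2-/- cells. PCGF2 was near 5 in Ring1a-/-_Ring1bfl, 4 in Pcgf6-/-, 3 in wild-type and Pcgf3/5-/- and 2 in Pcgf1-/- cells. PCGF6 was near 4 in Pcgf1-/- and Pcgf2/4-/-, 3 in shCtr, 1 in Pcgf3/5-/- and Pcgf6-/- and 0 in wild-type cells. The shares of all genes in these lists are those given above. The other 24 lists, among them all 10 of PCGF3 and the WDR5 list, had no peak near any of the 42 starts, against 0.00894% to 9.12% of all genes.

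At alpha starts H3K27me3 was near 8 of 11 in wild-type (12.8% of all genes) and all 11 in Pcgf1-/- (19.4%), Pcgf2/4-/- (35.8%), Pcgf3/5-/- (21%) and Pcgf3/5/6-/- cells (19.7%). It was near 5 in Pcgf6-/- (13.6%) and 4 in Pcgf1/2/4-/- cells (5.49%). H3K4me3 was near 9 in wild-type (66.2%), 11 in Pcgf6-/- (67.9%), 8 in Pcgf1-/- (65.2%), 9 in Pcgf2/4-/- (66.1%) and 4 in Pcgf3/5-/- cells (64.9%). RING1B was near 6 alpha starts in wild-type (15.1%), 10 in Pcgf6-/- (12.6%), 7 in Pcgf1-/- (15.2%) and Pcgf3/5-/- (15.4%), and 4 in Pcgf2/4-/- (17.0%) and Pcgf3/5/6-/- cells (7.88%). Both Pcgf1/2/4-/- lists had at most 1 (6.84% and 6.15%). SUZ12 was near 7 in wild-type (16.5%) and Pcgf1-/- (15.1%), 9 in Pcgf3/5-/- (17.0%), 5 in Pcgf1/2/4-/- (13.2%) and all 11 in Pcgf6-/- (14.4%), Pcgf2/4-/- (21%) and Pcgf3/5/6-/- cells (13.0%). H2AK119Ub1 was near 3 in wild-type (3.76%), 2 in Pcgf1-/- (9.79%) and Pcgf6-/- (6.93%), and all 11 in Pcgf2/4-/- (40.8%), Pcgf3/5-/- (65.0%) and Pcgf3/5/6-/- cells (31.2%), and near none in either Pcgf1/2/4-/- list (1.64% and 0.827%). For the alpha starts, the Pcgf6-/- lists thus held more RING1B, SUZ12 and PCGF2 and fewer H3K27me3 peaks than the wild-type lists, without a replicate to test it.

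At gamma starts H3K4me3 was near all 9 in each of the 5 lists, against 64.9% to 67.9% of all genes, and covered 17.7% of the gamma cluster in wild-type cells, against 2.45% of the alpha and 2.52% of the beta cluster. H3K36me3 was near 4 gamma starts in Pcgf2/4-/- (28.5%) and 5 in the other 4 lists (26.2% to 31.7%). H3K27me3 was near 4 in wild-type (12.8%) and Pcgf1-/- (19.4%), 9 in Pcgf2/4-/- (35.8%), 7 in Pcgf3/5-/- (21%), 3 in Pcgf6-/- (13.6%), 1 in Pcgf1/2/4-/- (5.49%) and 9 in Pcgf3/5/6-/- cells (19.7%). RING1B was near 0 to 4 gamma starts in its 8 lists (6.15% to 17.0%), with 4 in wild-type cells. SUZ12 was near 8 in Pcgf2/4-/- (21%) and 7 in Pcgf3/5/6-/- cells (13.0%), and near 2 to 4 in the other 5 lists (13.2% to 17.0%). H2AK119Ub1 was near all 9 in Pcgf2/4-/- (40.8%) and Pcgf3/5-/- (65.0%), 8 in Pcgf3/5/6-/- (31.2%), 3 in Pcgf1-/- (9.79%), 2 in wild-type (3.76%) 1 in Pcgf6-/- (6.93%) and 0 in both Pcgf1/2/4-/- lists (1.64% and 0.827%). Gamma is also the cluster with the most mRNA, and with 1 list per genotype the marks and the mRNA were not related further.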

How the data were processed

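Per the labels' protocols, poly-A RNA was copied by a modified SMART-seq2 method. Per the submitters' processing notes, TopHat2 2.1.1, Bowtie 1.2.2, HTSeq 0.7.2 and MACS2 2.1.1 were used with build mm9 (NCBIM37); for counting mode and strand, nothing is given in the sources used here. Raw counts per gene symbol were deposited by the authors. Their 6 tables of comparisons give log2 fold changes and adjusted p-values, per the file headers. They deposited each peak list with −log10 q values, per sample.

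Counts of all 14 libraries entered 1 quasi-likelihood fit (edgeR 4.0.16, R 4.3.3) with TMM factors. The filterByExpr filter kept 15464 genes, over which the Benjamini-Hochberg adjustment ran (threshold 0.05). The common dispersion was 0.015. DESeq2 1.42.0 was an alternative. Folds against a group at 0 use a floor of 3 counts over its libraries; intervals and floors cover counting error only. Peaks within a list were merged. The spike-in was not used.

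Named genes were the C-type isoforms, beta genes at 1 CPM or more, up to 2 gamma genes per comparison with the smallest adjusted p, and up to 3 regulators and 2 neighbours by the same rule; others were named after their values were seen. The members and gene lists were chosen with earlier results of these data known.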

Additional observations from a re-analysis of the deposited data

Results flagged for a closer look

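For 16 effects on single members, the change with loss of a PCGF protein differed between 2 backgrounds in edgeR's quasi-likelihood test of the difference, adjusted over all genes. For loss of Pcgf6 with against without Pcgf3/5 the adjusted p was 0.00058 for Pcdhga3, 0.000926 for Pcdhga8, 0.00121 for Pcdhgb2, 0.00623 for Pcdhgb8, 0.00984 for Pcdhgb7, 0.0112 for Pcdhgc3, 0.0383 for Pcdhga4 and 0.0401 for Pcdhga7. The effects on Pcdhga4 and Pcdhga7 lost the threshold in 10 and 8 of 15 alternatives, DESeq2 and the replicate block among them. Pcdhgb7 had a positive difference, as did Pcdhgc3, and the other 6 a negative one. Pcgf6 mRNA was present at 112% of its wild-type level in the Pcgf3/5/6-/- line and at 0 counts in the Pcgf6-/- line, so the form of the Pcgf6 edit and the background cannot be told apart.

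For loss of Pcgf1 with against without Pcgf2/4 the adjusted p was 0.000421 for Pcdhga3, 0.000448 for Pcdhgb1, 0.00104 for Pcdhga8, 0.00122 for Pcdhga9, 0.00426 for Pcdhga12, 0.0283 for Pcdhga1, 0.0305 for Pcdhga7 and 0.0355 for Pcdhgb4. All 8 differences were negative. Pcdhga9 had no count in either wild-type or either Pcgf1/2/4-/- library, so its difference has no size, and it passed the filter only through libraries where it is present. The effect on Pcdhgb4 lost the threshold in 8 of 13 alternatives, also with DESeq2 and the replicate block.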

How the results depend on the processing

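Of 46 calls on members against wild-type, 22 kept their side of the threshold under every alternative that gave the gene an adjusted p. Alternatives that did not test a gene were not counted as a loss. Among the 22, Pcdhga10 was tested in 9 or 10 of 11 alternatives and Pcdhga9 in Pcgf2/4-/- cells in 10 of 11. None of these calls or of the 16 differences between backgrounds reversed. DESeq2 called 0 members lower in Pcgf3/5-/-, 1 in Pcgf1/2/4-/- and 2 in Pcgf3/5/6-/- cells, and DESeq2's size factors in edgeR called 1 lower in Pcgf1/2/4-/-. With only the groups compared in the fit, 4 rose in Pcgf2/4-/- and 2 in Pcgf3/5/6-/-, and 5 effects of Pcgf1 loss differed. Offsets that follow abundance (loess) gave 2 members lower in Pcgf1-/-, 7 in Pcgf6-/- and 1 in Pcgf1/2/4-/-, and 2 higher in Pcgf3/5/6-/-. Libraries thinned to the smallest total gave 4, 2, 2 and 2 higher in Pcgf1-/-, Pcgf2/4-/-, Pcgf3/5-/- and Pcgf3/5/6-/- cells, 0 lower in Pcgf3/5-/- and 2 lower in Pcgf3/5/6-/-, with 5 effects of Pcgf6 loss and 4 of Pcgf1 loss that differed; thinning leaves fewer counts. Leaving out 1 library at a time gave 4 to 9 higher in Pcgf1-/-, 3 to 7 in Pcgf2/4-/-, 4 to 7 in Pcgf3/5-/-, 4 to 5 in Pcgf6-/-, 3 to 3 in Pcgf1/2/4-/- and 3 to 4 in Pcgf3/5/6-/-. It gave 0 to 1 lower in Pcgf3/5-/-, 3 to 4 in Pcgf6-/-, 1 to 1 in Pcgf1/2/4-/- and 1 to 3 in Pcgf3/5/6-/-, and 4 to 8 and 4 to 10 differing effects of Pcgf6 and Pcgf1 loss.

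Deviations of same-numbered libraries had no common direction (correlations from -0.462 to 0.375 over 21 pairs of groups, median 0.0131). The replicate numbers were therefore not used as pairs in the main fit. Whether some libraries shared a batch was not tested. With a replicate block 7, 6, 8, 4, 3 and 5 members rose and 0, 0, 1, 4, 2 and 4 fell in Pcgf1-/-, Pcgf2/4-/-, Pcgf3/5-/-, Pcgf6-/-, Pcgf1/2/4-/- and Pcgf3/5/6-/- cells, and 6 and 7 effects of Pcgf6 and Pcgf1 loss differed.

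Counts of beta starts moved with the window. Within 1 kb, H3K27me3 was near 13 in Pcgf1-/-, 12 in Pcgf2/4-/-, 15 in Pcgf3/5-/- and 2 in Pcgf1/2/4-/- cells, and H3K4me3 near 1 in wild-type, Pcgf1-/- and Pcgf2/4-/-, 0 in Pcgf3/5-/- and 7 in Pcgf6-/- cells. Starts inside a peak numbered 0, 3, 1, 2, 0, 0 and 6 for H3K27me3 (wild-type, Pcgf1-/-, Pcgf2/4-/-, Pcgf3/5-/-, Pcgf6-/-, Pcgf1/2/4-/-, Pcgf3/5/6-/-) and 0, 0, 1, 0 and 5 for H3K4me3 (the first 5). A −log10 q of at least 20, chosen after seeing the data, left H3K27me3 near 0, 2, 0, 0 and 9 starts (wild-type, Pcgf1-/-, Pcgf6-/-, Pcgf1/2/4-/-, Pcgf3/5/6-/-) and 2 in Pcgf3/5-/-, H3K4me3 near 5, 2, 0, 0 and 7, and H3K27me3 peaks over the beta cluster at 0, 2, 26, 3, 0, 0 and 10. At 5 no count changed. Depth limits the Pcgf1/2/4-/- and Pcgf3/5/6-/- libraries most, with floors of 0.734 and 0.49 CPM against 0.212 in wild-type.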
